A study of Mus musculus with 40 samples.

Results

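The response to activation was compared between mouse conventional CD4+ T cells (Tconvs) and thymic regulatory T cells (tTregs), as the difference (activated minus resting Tconvs) minus (activated minus resting tTregs) on the log2 scale. The 12 RNA-seq libraries of these 4 groups, 3 per group, were taken by their labels from the 40 samples of the series and from the 24 RNA-seq libraries of the expression table. The study set both cell types beside induced Tregs to ask how calcium and NFAT signaling shape their transcription and chromatin. The cells were CD4+ T cells from the spleens of Foxp3-GFP mice aged 2 to 4 months on a C57BL/6 background, which all 4 groups share, and the labels name no further allele or drug for them. The tTregs were sorted as CD4+ Foxp3-GFP+ cells, and the labels call them nTregs. How the Tconvs of the RNA-seq were gated is not given in the sources used here. The activated groups received antibodies to CD3 and CD28, and for these libraries the duration of the stimulation is not given in the sources used here. Libraries were prepared by SMART-seq2 with 22 cycles of PCR.

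T cell receptor (TCR) and CD28 ligation opens calcium channels and switches on NFAT, AP-1 and NF-κB, which induce cytokines, the IL-2 receptor and Myc, after which a T cell grows, rebuilds its metabolism and enters the cell cycle. Tregs are CD4+ T cells defined by the transcription factor Foxp3, which binds with NFAT at many of the same genes. They live on IL-2 made by other cells, and their receptors see self antigens in the resting animal, so that many proteins known as activation markers are part of their steady state.

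The values used were normalized counts, that is gene counts divided by a size factor per library. The libraries held between 5256800 and 15685234 recovered reads on genes. The tTreg groups were shallower, with medians of 7582032 reads at rest and 7131717 after activation against 11154961 and 12929458 in Tconvs, and their replicates varied more. The median SD of a gene over replicates was 0.195 and 0.218 (log2) in resting and activated tTregs against 0.102 and 0.107 in Tconvs. The test pooled this spread over the groups, so that a gene had one standard error in both cell types. With a weight per group instead, 1765 genes were called in tTregs and 5992 in Tconvs, against the 2408 and 5653 given below. The labels do not say that replicates came from separate mice, and p-values measure only the spread between these libraries. Foxp3 was 7537 ± 285 and 7312 ± 581 normalized counts (mean ± SD, n = 3) in resting and activated tTregs against 10.4 ± 0.835 and 33.8 ± 2.46 in Tconvs, as the labels have it. The B cell genes Ms4a1 and Pax5 were at 0 in all 12 libraries, and the summed level of the 10 B cell genes was 61.0 to 72.0 and 29.6 to 40.5 normalized counts in resting and activated Tconvs against 169.6 to 184.3 and 134.7 to 169.3 in tTregs, with 3 to 5 of the 10 at 0 in a group. Most of the tTreg sum was Cd79b (means of 124 and 100.1), which did not pass the test in tTregs. The 15 myeloid and dendritic cell genes summed to 873.2 to 942.6 and 754.7 to 804.5 in Tconvs, and in tTregs to 772.1 to 998.9 at rest and 1312 to 1806 after activation, with 10 of the 15 at 0 in both tTreg groups. That sum was nearly all Cst3, the widely expressed cystatin C (means of 877 and 1536 in tTregs, with a called change of 0.80), and its part in the tTreg response was not tested. The summed level of 10 genes of CD8 T and NK cells was 929.7 to 990.1 in resting Tconvs and 565.7 to 614.9 in activated ones, against 205.0 to 233.6 and 210.7 to 310.3 in tTregs, where 6 of the 10 were at 0. In such bulk libraries fewer cells of a type and less RNA per cell cannot be told apart.

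A gene was called at a Benjamini-Hochberg adjusted p below 0.05 (limma) and an absolute log2 fold change above 0.5. Of the 11173 genes tested, 2730 (24.4%) rose and 2923 (26.2%) fell in activated Tconvs, whereas 1271 (11.4%) rose and 1137 (10.2%) fell in activated tTregs. The median absolute log2 change of a gene was 0.585 in Tconvs against 0.323 in tTregs. A difference in response was itself called for 3843 genes (34.4%), with 1862 (16.7%) higher in Tconvs and 1981 (17.7%) lower. Of the genes called in Tconvs 30.6%, and of those called in tTregs 71.8%, were called in both, 1729 genes in all. The 2 responses thus shared 1597 genes that moved in one direction and 132 that moved in opposite directions.

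A response was assigned to one cell type only where the difference was called too. By that rule 2479 genes (1163 up, 1316 down) responded in Tconvs only, and the risers among them had a median log2 change of 1.09 in Tconvs and 0.05 in tTregs. A further 576 genes responded in both with the larger change in Tconvs, with medians of 2.23 and 0.90 for the 315 that rose. For 1016 genes (563 up, 453 down) both responses were called and no difference was, with medians of 1.02 in Tconvs and 0.85 in tTregs for those that rose. Only 273 genes (142 up, 131 down) responded in tTregs alone and 5 responded in both with the larger change in tTregs. In 1445 genes called in Tconvs and 406 called in tTregs the other response and the difference were both short of the threshold, and these were assigned to neither side. The count for tTregs alone depended on 1 library: without activated tTreg replicate 2 it was 522, and the count of opposite responses was 207.

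**Figure D1:**
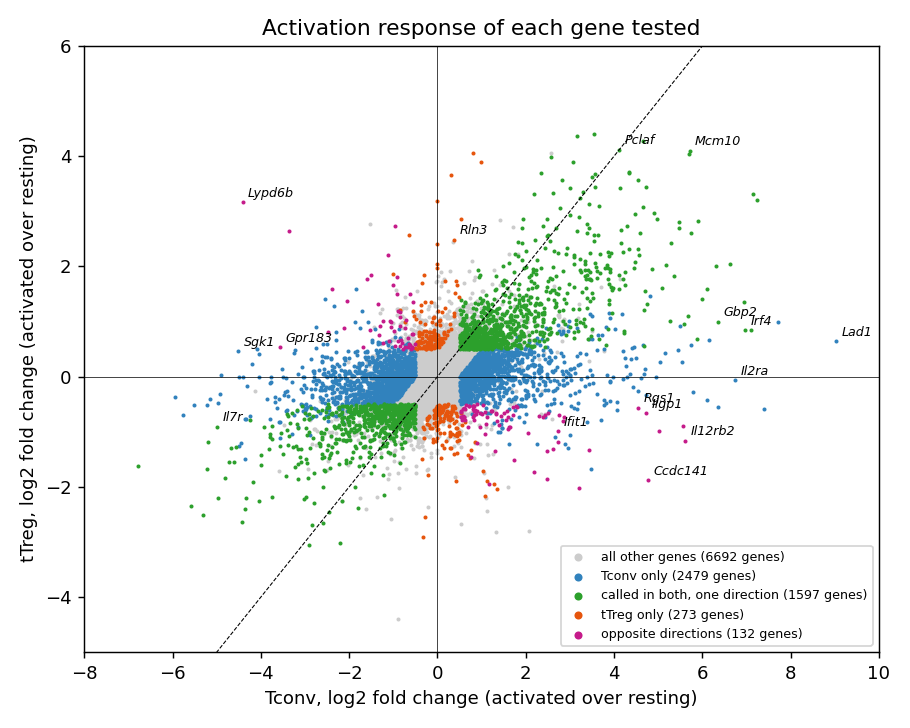
Each point is a gene tested; the x axis is the log2 fold change on activation in Tconvs and the y axis that in tTregs, the dashed line marks equal changes, and the colors mark genes called in Tconvs only (2479), in tTregs only (273), in both in one direction (1597) or in opposite directions (132). The cloud is stretched along the x axis, where Sgk1 is at -4.51 and Lad1 at 9.04, and both are near 0 on the y axis.

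The weaker response of tTregs raises the question whether they already stood, at rest, where activated Tconvs arrive. Of the 2730 genes that rose in Tconvs, 1559 (57.1%) rose by less in tTregs with the difference called. Among these 1559, resting tTregs lay above resting Tconvs in 676 (43.4%), against 20.4% of all genes tested with a called gap in that direction. The gap was not called in 795 and went the other way in 88. Activated Tconvs lay above activated tTregs in 963 of the 1559 genes (61.8%, against 22.6% of all genes tested, of which 48.2% were apart in either direction). A higher resting level with no called gap after activation, the pattern of a gene that is simply on already, was found in 345 (22.1%). The reverse, no called gap at rest and activated Tconvs above activated tTregs, was found in 684 (43.9%). A gap that was not called is not shown to be absent. Another 191 had both gaps, 111 had neither, and in 140 resting tTregs were above resting Tconvs and activated tTregs remained above activated Tconvs. A difference in response is arithmetically the sum of the resting gap and the activated gap. In genes chosen by that difference, shares of either gap above those of all genes are therefore partly built in. Over the 1559 genes the resting gap made up 52.0% of the summed difference. The activated gap made up the rest.

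The resting gap and the response share the resting libraries, so that noise in the resting libraries of either cell type can create both. Genes were therefore also chosen with one replicate number left out of all 4 groups and their values read from the libraries left out. In these, the resting gap was beyond 0.5 in 43.9% to 47.7% of the genes with a weaker rise, against 36.5% to 38.1% of all genes that rose in Tconvs. The 1427 genes that rose in Tconvs and had a resting gap within 0.5 had a median log2 change of 0.90 in Tconvs and 0.34 in tTregs, and 748 of them (52.4%) had a called difference. Read from the libraries left out, these medians were 0.875 to 0.927 in Tconvs and 0.249 to 0.388 in tTregs. A weaker tTreg response was thus present among genes that started within 0.5 of each other and were chosen for a called rise in Tconvs. That choice favors the larger change in Tconvs. Genes chosen by their tTreg response were not read in the same way. Where resting tTregs were above by more than 1 (626 genes), the Tconv median was 1.82 and the tTreg median 0.24, and 460 (73.5%) had a called difference. Where resting tTregs were below by more than 1 (73 genes), the medians were 1.40 and 0.73. In the libraries left out, genes with a resting gap beyond 1 had tTreg medians of 0.386, 0.283 and 0.337 (replicates 1, 2 and 3 left out). Those within 0.5 had 0.249, 0.388 and 0.368. The order of these 2 sets was thus kept with replicates 2 and 3 left out and reversed with replicate 1. Genes with resting tTregs below by more than 1 were not read in this way.

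**Figure D2:**
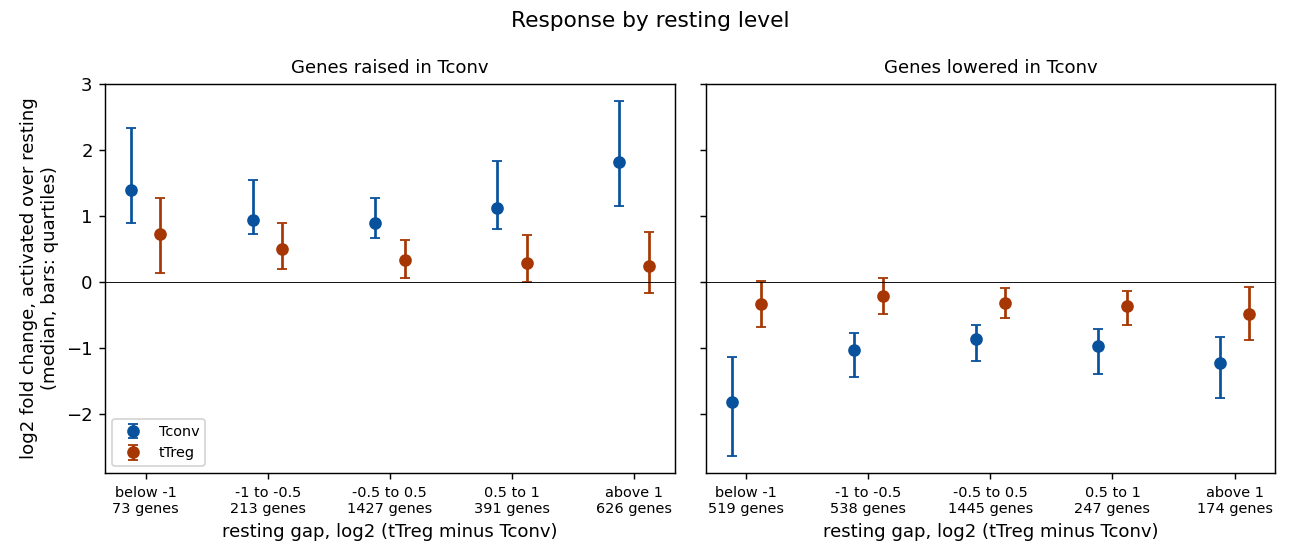
The log2 fold change on activation (y axis) of genes that rose (left) or fell (right) in Tconvs, in 5 bins of the resting gap (x axis, tTreg minus Tconv, log2), with points at the median and bars at the quartiles over the genes of a bin. In the genes that rose, tTreg medians go from 0.73 in the lowest bin to 0.24 in the highest, and lie below the Tconv median in every bin.

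Of the 2923 genes that fell in Tconvs, 1628 (55.7%) fell by less in tTregs. Resting tTregs lay below resting Tconvs in 711 of them (43.7%, against 18.2% of all genes). In 429 of the 1628 (26.4%) resting tTregs were lower and no gap was called after activation. In 594 (36.5%) no gap was called at rest and activated Tconvs lay below activated tTregs. The resting gap made up 43.8% of the summed difference. Read from the libraries left out, resting tTregs were lower by more than 0.5 in 43.5% to 47.4% of the genes with a weaker fall. Among all genes that fell in Tconvs this share was 35.6% to 37.4%. The tTreg median was -0.33 where resting tTregs were below by more than 1 and -0.31 where the resting gap was within 0.5. On an axis that runs from 0% in resting Tconvs to 100% in activated Tconvs, computed on the log2 scale over the genes that rose, the 3 resting tTreg libraries were at 21.1 ± 2.41% and the 3 activated ones at 56.6 ± 0.94% (mean ± SD). Over the genes that fell, they were at 24.6 ± 4.61% and 52.8 ± 2.68%.

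The groups of genes below were chosen by function from textbook knowledge. Their counts read against the shares of all genes called, 24.4% up and 26.2% down in Tconvs, 11.4% and 10.2% in tTregs, and 16.7% and 17.7% for the difference.

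**Figure D3:**
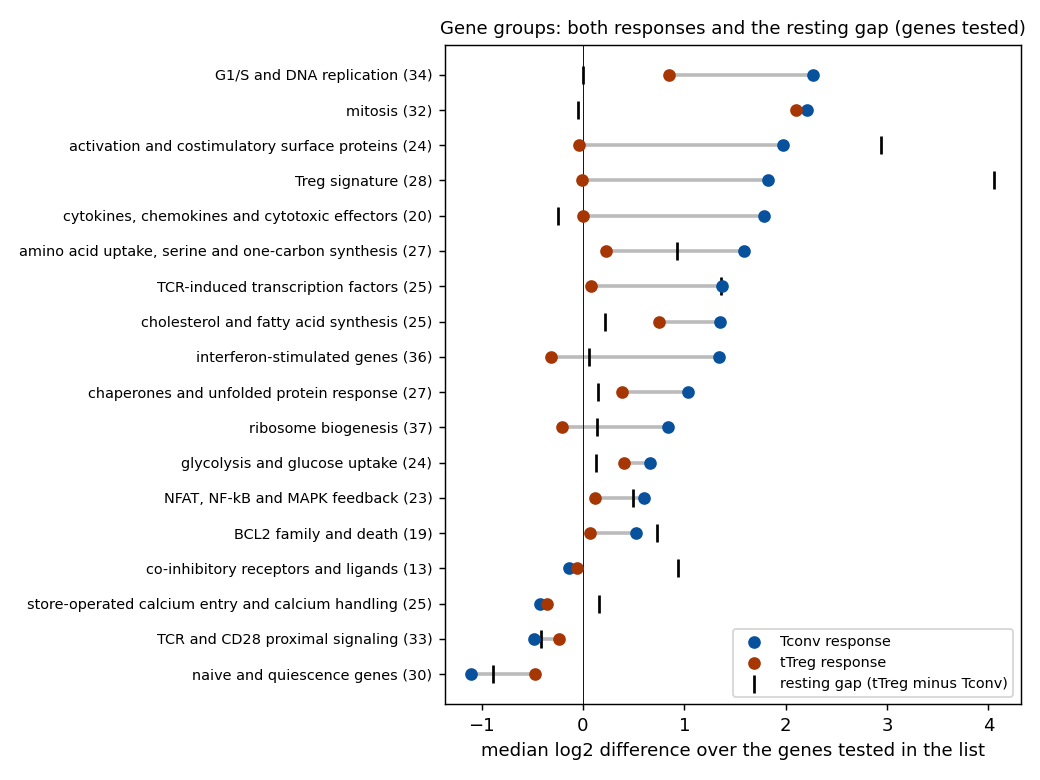
Median log2 difference of 18 gene groups (number of genes tested in brackets), with the Tconv response in blue, the tTreg response in brown and the resting gap (tTreg minus Tconv) as a black tick. The resting gap is largest for the Treg signature (4.06) and near 0 for G1/S, mitosis, ribosome biogenesis and interferon-stimulated genes.

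The Treg signature and the activation surface proteins (2.94) had the largest median resting gaps of the groups. TCR-induced transcription factors came next (1.36). Of 28 Treg signature genes tested, 18 rose in Tconvs (median over the 28, 1.82) and 6 in tTregs (median -0.01), and 26 were higher in resting tTregs, with a median resting gap of 4.06. All 18 that rose in Tconvs had a called difference, 17 of these had the resting gap, and in none did activated Tconvs lie above activated tTregs. The list holds genes known for being high in Tregs, and its direction at rest is no independent finding. Il2ra, the high-affinity chain of the IL-2 receptor (chr2:11642807-11693193, plus strand, GRCm38), had 42.2, 38.5 and 38.6 normalized counts in the 3 resting Tconv libraries, 4315, 4290 and 4447 in the activated ones, 7315, 6550.2 and 6389.7 in resting tTregs and 6001, 7299 and 6169 in activated tTregs. Every tTreg library, resting or activated, was above every activated Tconv library, and the 2 tTreg groups overlapped. The log2 change was 6.74 ± 0.09 (standard error; adjusted p = 4.08e-14) in Tconvs and -0.06 ± 0.09 (adjusted p = 0.639) in tTregs, with a difference of 6.80 ± 0.13 (adjusted p = 5.29e-12).

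Tnfrsf9 (4-1BB), a costimulatory receptor of activated T cells, rose from 32.2 to 877 normalized counts in Tconvs and was 8153 and 6627 in tTregs (group means), so that activated Tconvs remained far below resting tTregs. The same order held for Lrrc32, which encodes the latent TGF-β receptor GARP (7.40 and 90.9 against 6194 and 5679.6), and for the receptor gene Gpr83 (54.1 and 1002 against 11482 and 11106). Both rose in Tconvs and neither passed the test in tTregs. Of 24 activation and costimulatory surface genes, some of which are also in the signature, 16 rose in Tconvs and 6 in tTregs, and of the 14 with a weaker rise in tTregs 13 had the higher resting level. Tnfrsf4 (OX40) had log2 changes of 4.20 in Tconvs and 0.46 in tTregs, Icos 1.80 and 0.15, and Cd83 4.68 and 0.55, with only Cd83 called in tTregs. Cd69, the earliest of the classical activation antigens, had 230.4, 231 and 273 in resting and 2279, 2125 and 2356 in activated Tconvs, and went from 569.7, 529 and 396 to 385, 415 and 436 in tTregs. It began higher in tTregs by 1.01 (log2) and ended 2.45 higher in Tconvs, so that the resting level covered only part of the difference of 3.46 ± 0.18 (adjusted p = 4.11e-08).

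The genes with the largest resting gap and no called gap after activation were Ticrr, Pla2g4f, Cish and Gzmb. Cish, a STAT5 target that restrains IL-2 and TCR signaling, had 139.9, 172 and 156 normalized counts in resting Tconvs, 6736, 6813 and 6985 in activated Tconvs, 6032, 5677 and 5859 in resting tTregs and 8163, 8009 and 8418 in activated tTregs. Resting Tconvs stood apart from the other 3 groups, the tTreg groups did not overlap, and the log2 changes were 5.45 ± 0.08 and 0.49 ± 0.08, the latter under the fold threshold. Gzmb, the cytotoxic protease granzyme B, had 13.4, 24.4 and 27.2 and then 1127, 1001 and 1199 in Tconvs, and 791, 572 and 575 and then 1199.9, 1571 and 1339 in tTregs. It rose in tTregs as well, by 1.09 ± 0.22 (adjusted p = 0.00285), and the lowest activated tTreg library was level with the highest activated Tconv library. Pla2g4f, which encodes a cytosolic phospholipase A2, rose by 6.64 in Tconvs and changed by 2.05 in tTregs, with a resting gap of 5.49.

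Among 25 TCR-induced transcription factors, 16 rose and 5 fell in Tconvs (median 1.38), and 3 rose and 1 fell in tTregs (median 0.08). Of the 13 with a weaker rise in tTregs, 11 were higher in resting tTregs and 6 were higher in activated Tconvs. Myc, which drives growth and metabolism, had 363, 384 and 393 normalized counts in resting Tconvs and 3384, 3491 and 3539 in activated Tconvs. In tTregs it had 2764, 2737 and 3640.2 at rest and 4095, 2586 and 4009 after activation. Both tTreg groups and activated Tconvs overlapped, and the difference was 2.98 ± 0.22 (adjusted p = 8.8e-07), of which the resting gap made up 2.99. The orphan receptor gene Nr4a1, a reporter of TCR signaling, was 10.7 and 65.5 in Tconvs and 297 and 293 in tTregs.

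Irf4, a factor whose amount follows TCR strength (chr13:30749226-30766976, plus strand, GRCm38), behaved otherwise. It had 28.8, 33.8 and 37.7 normalized counts in resting Tconvs, 4186, 4235 and 4507 in activated Tconvs, 266, 210.2 and 173 in resting tTregs and 335, 472 and 354 in activated tTregs. No groups overlapped, and activated tTregs were closer to resting tTregs than to activated Tconvs. The log2 change was 6.98 ± 0.17 in Tconvs and 0.84 ± 0.17 in tTregs, and the difference of 6.13 ± 0.24 (adjusted p = 3.17e-09) was made of a resting gap of 2.64 and an activated gap of 3.49. Irf8, its close relative, did the same, with changes of 6.95 and 1.36. Atf3, a stress factor, was at 0 in the 3 resting Tconv libraries and 220.0, 185 and 225 in the activated ones, at least 68.1-fold higher against a floor of 3 reads per library, and was 8.88 and 17.1 in tTregs. Lad1, which encodes the anchoring filament protein ladinin, had the largest difference of the genes that responded in Tconvs only. It had 1.03, 2.81 and 0 at rest and 989, 1086 and 1044 after activation in Tconvs, and 132, 132 and 157 and 257, 202 and 203 in tTregs. The tTreg groups did not overlap, but the change of 0.65 ± 0.35 missed the threshold (adjusted p = 0.171). That standard error was pooled over the 4 groups, among them resting Tconvs at or under 3 reads, where log2 values scatter. The place of Lad1 among genes that responded in Tconvs only rests on this missed call. Pros1, encoding the blood protein S, was called in both with the larger change in Tconvs (7.10 against 0.85).

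**Figure D4:**
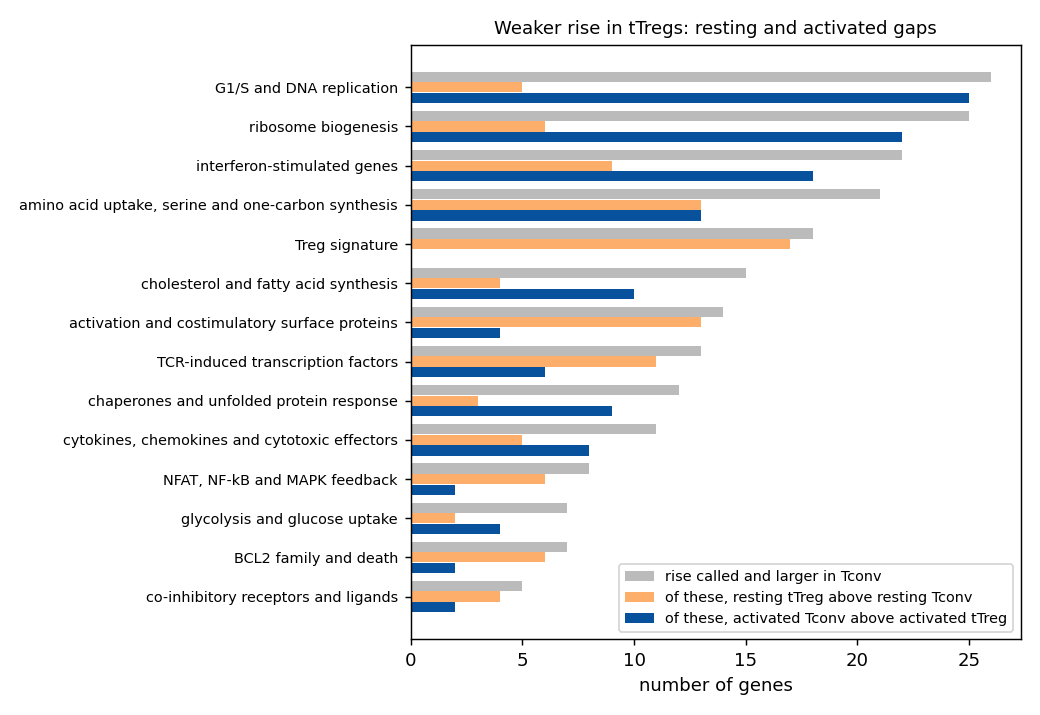
For each gene group with at least 5 such genes, the number of genes whose rise was called and larger in Tconvs (grey), and how many of these were higher in resting tTregs than in resting Tconvs (orange) or higher in activated Tconvs than in activated tTregs (blue). Orange bars nearly fill the grey ones in the Treg signature (17 of 18) and the surface proteins (13 of 14), and blue bars do in G1/S (25 of 26) and ribosome biogenesis (22 of 25).

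The cytokines were split. Of 36 cytokine, chemokine and cytotoxic genes listed, 20 passed the filter on low values, and 12 of these rose in Tconvs against 2 in tTregs. Tnf went from 35.1 to 532 in Tconvs and stood at 509 and 482 in tTregs, level with activated Tconvs throughout (activated gap 0.14). Lta, encoding lymphotoxin α, rose from 108 to 1645 and was 687 and 647 in tTregs, where activated Tconvs ended 1.35 higher. Il21, the helper cytokine, was 29.6, 31.9 and 31.1 in activated Tconvs and at 0 in all 6 tTreg libraries, a level at least 5.67-fold higher in activated Tconvs than the floor. Ifng was 1.03, 5.63 and 7.90 and 37.7, 28.5 and 26.2 in Tconvs and 1.81, 0 and 5.70 and 0, 0.946 and 0 in tTregs, near the floor of 2.12 to 5.45 normalized counts in all but activated Tconvs. Ccl5, Prf1 and Fasl, genes of cytotoxic cells, fell in Tconvs by 2.35, 2.31 and 1.66 on the log2 scale. They moved together with the CD8 T and NK cell list, in which 5 of the 6 genes tested fell and 1, Eomes, rose in Tconvs, and in which Klrd1 dropped from 396 to 16.9. The part of such cells in these falls was not tested.

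More interferon-stimulated genes rose than fell in Tconvs, and more fell than rose in tTregs. Of 36 genes tested, 23 rose and 9 fell in Tconvs (median 1.35), whereas 4 rose and 14 fell in tTregs (median -0.32). The difference was called as higher in Tconvs for 26 and lower for 3, and the median resting gap was 0.06. Of the 22 with a weaker rise in tTregs, 9 were higher in resting tTregs and 18 were higher in activated Tconvs. Irgm1, an immunity-related GTPase of the cell's own defence, had 256, 247 and 268 normalized counts in resting Tconvs and 6103, 5226 and 6655 in activated Tconvs, against 325, 252 and 292 in resting tTregs and 210.1, 290.4 and 225 in activated tTregs. All 3 groups other than activated Tconvs overlapped. The change was 4.53 ± 0.14 (adjusted p = 5.82e-11) in Tconvs and -0.26 ± 0.14 (adjusted p = 0.156) in tTregs.

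Interferon-regulated promoters often carry a repeat of GAAA that IRF factors bind. The letters GAAANNGAAA were searched on both strands in RefSeq promoter windows of 300 bases, from 250 before to 50 after the annotated start (GRCm38.p6). A window was matched by symbol for 8890 of the 11173 genes tested, 1 window a gene. The letters occurred in 19 of the 28 interferon-stimulated genes with a window (67.9%), in 3.22% of all genes tested and in 3.49% of all 27025 windows. The promoters of Irgm1, which rose only in Tconvs, and Ifit1, which went in opposite directions, are shown from 250 bases before the start to 30 after it, with the matched letters in capitals. Both hold 2 matches, which in Irgm1 overlap and begin 30 and 24 bases before the start, and in Ifit1 lie on the other strand.
Irgm1, chr11:48871391-48871670, minus strand: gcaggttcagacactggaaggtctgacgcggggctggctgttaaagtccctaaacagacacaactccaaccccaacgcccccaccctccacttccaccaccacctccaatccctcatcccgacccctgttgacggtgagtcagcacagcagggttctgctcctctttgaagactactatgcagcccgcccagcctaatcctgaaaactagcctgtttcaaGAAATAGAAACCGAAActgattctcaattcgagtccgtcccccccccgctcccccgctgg
Ifit1, chr19:34640639-34640918, plus strand: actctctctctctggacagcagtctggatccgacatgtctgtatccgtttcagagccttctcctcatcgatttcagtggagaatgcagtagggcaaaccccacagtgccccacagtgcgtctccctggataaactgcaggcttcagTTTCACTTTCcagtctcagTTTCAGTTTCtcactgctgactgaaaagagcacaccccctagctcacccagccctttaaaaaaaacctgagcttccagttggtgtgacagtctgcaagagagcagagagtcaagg
Among the 19 genes with these letters, 13 rose and 4 fell in Tconvs and 3 rose and 6 fell in tTregs, and among the 9 without them 4 rose and 4 fell in Tconvs and 4 fell in tTregs. The same letters thus stood before genes that rose in one cell type and fell in the other, and a match is no evidence of binding.

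Irf1, a transcription factor induced by interferons, had a change of 2.02 in Tconvs and 0.16 in tTregs, and the GTPase gene Igtp 2.67 and 0.13, neither with a called resting gap. The guanylate-binding protein genes were mostly higher in resting tTregs, Gbp2 with 639.9 against 2827 at rest and 52732 against 5691 after activation. Gbp10, named by the size of its difference, had 15.4, 8.44 and 14.9 and 2338, 1993 and 2474 in Tconvs and 68.9, 54.5 and 28.5 and 24.2, 33.1 and 38.1 in tTregs. Members of the Gbp and Ifit families resemble each other in sequence, and how reads were split between them is uncertain.

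Not every interferon-stimulated gene followed. Ifit2, Oasl2, Rtp4 and Ddx58, sensors and effectors of antiviral defence, fell in both cell types, with changes of -1.44, -1.99, -0.53 and -0.77 in Tconvs and -1.14, -1.55, -0.92 and -0.68 in tTregs. Gbp2, Gbp5, Iigp1 and Irgm1, GTPases known to answer to interferon-γ, were among the members with the largest rises in Tconvs. Neither kind of gene was uniform. The antiviral gene Ifit1 rose in Tconvs too, with a difference of 3.72, and Gbp3 and Gbp7 had differences of 3.18 and 1.88 against 5.40 for Iigp1. Socs1, a brake on interferon signaling, had changes of 2.80 and -0.49. Il12rb2, the IL-12 receptor chain of Th1 cells, was called in opposite directions, with 19.5, 18.8 and 22.8 at rest and 1047, 1028 and 1035 after activation in Tconvs, against 44.4, 59.7 and 29.6 and then 13.5, 36.9 and 12.7 in tTregs. The tTreg groups overlapped, with an adjusted p of 0.0213, and the Tconv rise was without overlap. The gene of the Th1 factor T-bet, Tbx21, rose from 20.6 to 172 in Tconvs and was at the floor in tTregs (4.07 and 1.80).

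G1/S and DNA replication genes rose in both cell types and by more in Tconvs. Of 34 genes tested, 30 rose and none fell in Tconvs (median 2.27), 24 rose and 1, Ccnd1, fell in tTregs (median 0.85), and the difference was called for 26, all higher in Tconvs. The median resting gap was 0.00, and of the 26 genes 25 were higher in activated Tconvs and 5 were higher in resting tTregs. Mcm5, a subunit of the replicative helicase, had 428, 456 and 467 normalized counts in resting Tconvs and 4916, 4782 and 5088 in activated ones, and 525, 415 and 403 and then 1339, 1701 and 1522 in tTregs. The resting groups overlapped, and the activated groups were apart without overlap. The change was 3.45 ± 0.11 in Tconvs and 1.76 ± 0.11 in tTregs, a difference of 1.69 ± 0.16 (adjusted p = 5.45e-06). Mcm6, another subunit of the same hexamer, was 2071, 2265 and 2214 and then 7214, 7286 and 7206 in Tconvs and 1225, 2740.5 and 3235 and then 8279, 5393 and 8270.4 in tTregs. Its changes were 1.73 ± 0.28 and 1.70 ± 0.28, and the 95% interval of the difference ran from -0.82 to 0.89. Resting tTreg replicate 1 was the lowest of all libraries for Mcm6, and the tTreg values scattered more than those of Tconvs.

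Mcm5 and Mcm6 are shown as members of one complex with unlike differences. Their promoters both hold the letters TTTNGCGC (either strand), the core that E2F factors are known to bind, which were found in 8 of 26 G1/S genes with a window (30.8%), in 2.55% of all genes tested and in 1.38% of all windows. Capitals mark the matches, of which 2 in Mcm5 and 2 of the 3 in Mcm6 overlap each other as the same site read on both strands.
Mcm5, chr8:75109259-75109538, plus strand: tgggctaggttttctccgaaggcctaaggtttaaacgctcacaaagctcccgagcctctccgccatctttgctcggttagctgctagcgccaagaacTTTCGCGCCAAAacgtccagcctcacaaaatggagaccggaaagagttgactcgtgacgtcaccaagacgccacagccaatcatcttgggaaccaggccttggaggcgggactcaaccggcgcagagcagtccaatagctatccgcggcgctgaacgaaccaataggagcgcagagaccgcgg
Mcm6, chr1:128359676-128359955, minus strand: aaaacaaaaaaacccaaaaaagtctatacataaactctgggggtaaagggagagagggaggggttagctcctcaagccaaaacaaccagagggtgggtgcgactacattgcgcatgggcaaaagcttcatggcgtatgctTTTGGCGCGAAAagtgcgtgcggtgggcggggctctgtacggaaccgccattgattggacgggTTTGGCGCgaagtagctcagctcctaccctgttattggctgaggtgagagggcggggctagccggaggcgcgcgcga
Of the 8 genes with the letters 7 rose in Tconvs and 6 in tTregs, and of the 18 without them 16 and 12 did. Cdc6 and Mcm10, which load and start the helicase, rose in tTregs by 4.03 and 4.10 and in Tconvs by 5.71 and 5.71. Cdk6, a kinase of early G1, was instead high at rest, with 249 and 4802 in Tconvs and 2671 and 3087 in tTregs.

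Mitotic genes, which act after replication, had medians close to each other in both cell types. Of 32 tested, 26 rose in Tconvs (median 2.21) and 27 in tTregs (median 2.10). The difference was called for 3 in each direction, and 22 were called in both with no difference called. The median difference was 0.05 and changed sign with the scaling, to -0.12 after quantile normalization and -0.03 with reads thinned to equal depth. Cdca8 (borealin, of the chromosomal passenger complex) had 23.7, 23.4 and 25.5 normalized counts at rest and 163, 165 and 153 after activation in Tconvs, and 36.3, 15.6 and 44.4 and then 222, 177 and 191 in tTregs. The resting groups overlapped and the activated tTreg libraries lay just above the activated Tconv ones, with changes of 2.68 ± 0.29 and 2.69 ± 0.29 and a 95% interval of the difference from -0.90 to 0.87. Pclaf, a clamp-associated factor of replication and repair that the size of both its responses named, rose by 4.11 ± 0.28 in Tconvs and 4.12 ± 0.28 in tTregs. Spc24, a kinetochore subunit, rose by 3.55 and 4.40. Cdca8 was at a low level throughout, at most 222 normalized counts.

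The letters TTTGAA (either strand) make up the CHR, an element that represses cell cycle genes in G0 and opens them in G2 and M. They stood in 19 of 26 mitotic genes with a window (73.1%) against 12.1% of all genes tested and 18.1% of all windows. Cdca8 is shown with its match just after the start, and Top2a, the DNA topoisomerase whose rise was larger in Tconvs (4.48 against 2.08, with a resting gap of 1.83), with matches 179 and 23 bases before it.
Cdca8, chr4:124936888-124937167, minus strand: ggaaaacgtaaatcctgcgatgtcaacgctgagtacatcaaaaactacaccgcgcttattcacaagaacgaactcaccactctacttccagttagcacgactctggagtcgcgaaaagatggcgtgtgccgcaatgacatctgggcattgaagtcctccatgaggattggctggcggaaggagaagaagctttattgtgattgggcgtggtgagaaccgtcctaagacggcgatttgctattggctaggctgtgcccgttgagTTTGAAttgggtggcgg
Top2a, chr11:99024160-99024439, minus strand: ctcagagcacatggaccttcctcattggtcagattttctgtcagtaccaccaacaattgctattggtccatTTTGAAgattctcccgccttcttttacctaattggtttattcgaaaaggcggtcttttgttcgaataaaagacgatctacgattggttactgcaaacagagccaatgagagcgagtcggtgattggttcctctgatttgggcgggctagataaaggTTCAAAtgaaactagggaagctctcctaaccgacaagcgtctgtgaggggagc
Of the 19 genes with the letters, 14 rose and 2 fell in Tconvs and 16 rose in tTregs. Of the 7 without them, 7 rose in Tconvs and 6 in tTregs. A few members went their own way. Ccnb2 (cyclin B2) had 11.3, 12.2 and 16.7 and 24.2, 19.0 and 16.3 in Tconvs and 8.16, 5.19 and 17.1 and 67.3, 65.3 and 87.2 in tTregs, and responded in tTregs only, by 2.87 ± 0.35 against 0.53 ± 0.35. Kif23 and Cenpa, of the central spindle and the centromere, fell in Tconvs (-2.59 and -1.31), and in tTregs Kif23 was 40.6 and 61.0 (adjusted p = 0.0588).

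Ribosome biogenesis genes rose in Tconvs and, with 1 exception, did not pass the test for a rise in tTregs. Of 37 genes, 26 rose and 2 fell in Tconvs (median 0.84), whereas 1 rose and 4 fell in tTregs (median -0.21). The difference was called for 29 as higher in Tconvs and for 1, Wdr12, as lower. The median resting gap was 0.14, and of the 25 genes with a weaker rise in tTregs 22 were higher in activated Tconvs and 6 in resting tTregs. Gnl3 (nucleostemin) was called in opposite directions, with 346, 366 and 389.7 and then 874, 803 and 937 in Tconvs and 441, 410.0 and 374 and then 257, 267 and 267 in tTregs. The resting groups lay close together, and the changes were 1.24 ± 0.10 and -0.63 ± 0.10. Polr1b, a core subunit of RNA polymerase I, did the same (1.03 and -0.51). Nop56, Nop58 and Dkc1, of the small nucleolar RNA particles, rose by 0.98, 1.43 and 1.33 in Tconvs and had changes of -0.47, -0.06 and -0.22 in tTregs, none of which was called. The Myc target letters CACGTG were in 6 of 32 windows (18.8%) against 10.4% of all genes tested and 7.24% of all windows, and Tsr1, a factor of the small subunit with changes of 1.50 and -0.28, is shown for its match just after the start.
Tsr1, chr11:74897830-74898109, plus strand: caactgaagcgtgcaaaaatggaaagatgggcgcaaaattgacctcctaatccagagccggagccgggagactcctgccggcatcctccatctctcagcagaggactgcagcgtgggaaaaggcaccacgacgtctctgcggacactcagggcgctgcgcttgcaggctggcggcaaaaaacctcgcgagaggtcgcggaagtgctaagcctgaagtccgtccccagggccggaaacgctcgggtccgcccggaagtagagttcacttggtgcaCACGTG
Reads on ribosomal protein genes had a higher level in Tconvs, at 15.5% to 16.0% of the total at rest and 16.1% to 17.7% after activation. In tTregs the share was 9.6% to 10.9% and 12.3% to 13.0%. On activation it thus rose in both cell types, and by more in tTregs, unlike the ribosome biogenesis genes.

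Metabolic genes fell between these patterns. Of 25 cholesterol and fatty acid synthesis genes, 21 rose in Tconvs (median 1.35) and 15 in tTregs (median 0.75), none fell, and 15 differences were called, all higher in Tconvs. Idi1, an isomerase of the mevalonate pathway, rose by 2.68 in Tconvs and 1.27 in tTregs. Of 27 genes for amino acid uptake and for serine, one-carbon and nucleotide synthesis, 24 rose in Tconvs (median 1.59) and 9 in tTregs (median 0.23), and 15 were higher in resting tTregs. Psat1, of serine synthesis, had 187, 148 and 186 and then 3179.5, 3226 and 3304 in Tconvs and 1069.5, 951 and 823 and then 1378, 1956 and 1604 in tTregs, so that tTregs began between the 2 Tconv groups and ended there. Shmt1, the cytosolic serine hydroxymethyltransferase, rose by 2.85 in Tconvs and changed by 0.05 in tTregs. Of 24 glycolysis genes, 14 rose in Tconvs (median 0.67) and 11 in tTregs (median 0.41). The difference was called as higher in Tconvs for 7 and lower for 3, with a median difference of 0.12 over the list. Hk2, the inducible hexokinase, was 8.67 and 226 in Tconvs and 60.5 and 142 in tTregs, and Gapdh rose by 2.63 and 1.05.

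Genes of naive and quiescent T cells were lower in resting tTregs and fell by less. Of 30, 20 fell in Tconvs (median -1.10) and 14 in tTregs (median -0.47), 18 differences were called as lower in Tconvs, and 17 of the 30 were lower in resting tTregs. Il7r, the IL-7 receptor chain, had 20644, 20013 and 21395 normalized counts in resting Tconvs and 658, 604 and 686 in activated Tconvs, 1753, 1643 and 1267 in resting tTregs and 746, 822 and 892 in activated tTregs. Each group was apart from the next, with resting tTregs far nearer to the activated groups. The changes were -4.99 ± 0.11 and -0.91 ± 0.11, and the activated gap of -0.33 was within the threshold. Tcf7, the gene of TCF-1, dropped to 3436 from 16211 in Tconvs and was 1221 and 1110.2 in tTregs. S1pr1 and Klf2, which keep T cells in circulation, fell in both, by -3.03 and -2.05 in Tconvs and -0.78 and -0.56 in tTregs (log2 changes). Sgk1, a kinase downstream of PI3K, fell in Tconvs only, from 802, 809 and 836 to 33.2, 31.9 and 39.6, and was 379, 564 and 485 and then 770.3, 482 and 732 in tTregs. Its tTreg groups overlapped, and activated Tconvs were the lowest of all. Tob1, an antiproliferative factor, was 629 and 44.9 in Tconvs and 157 and 146 in tTregs.

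In the signaling machinery itself more genes fell than rose in both cell types. Of 33 TCR and CD28 proximal genes, 2 rose and 15 fell in Tconvs (median -0.49), and 2 rose and 11 fell in tTregs (median -0.23). Of 25 genes of store-operated calcium entry and calcium handling, 4 rose and 12 fell in Tconvs, 1 rose and 9 fell in tTregs, and the medians were -0.43 and -0.36. Stim1, the calcium sensor of the endoplasmic reticulum, had 2255, 2281 and 2251 and then 678, 793 and 703 in Tconvs and 874, 1039 and 1213 and then 1240.3, 976 and 1152 in tTregs. Resting Tconvs stood above the other groups, and the changes were -1.64 ± 0.12 and 0.11 ± 0.12. The channel gene Orai2 (-2.24 and 0.02) and Saraf, an inhibitor of calcium entry (-2.31 and 0.45), also fell in Tconvs only. Ppp3cc, a catalytic subunit of the phosphatase calcineurin, went the other way in Tconvs, from 88.4, 85.4 and 79.0 to 536, 459.7 and 555, and was 79.8, 101 and 104 and then 112, 89.9 and 104 in tTregs, with the 3 groups other than activated Tconvs side by side. Ppp3ca, the more abundant catalytic subunit of resting cells, fell in both (-2.11 and -0.73).

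**Figure D5:**
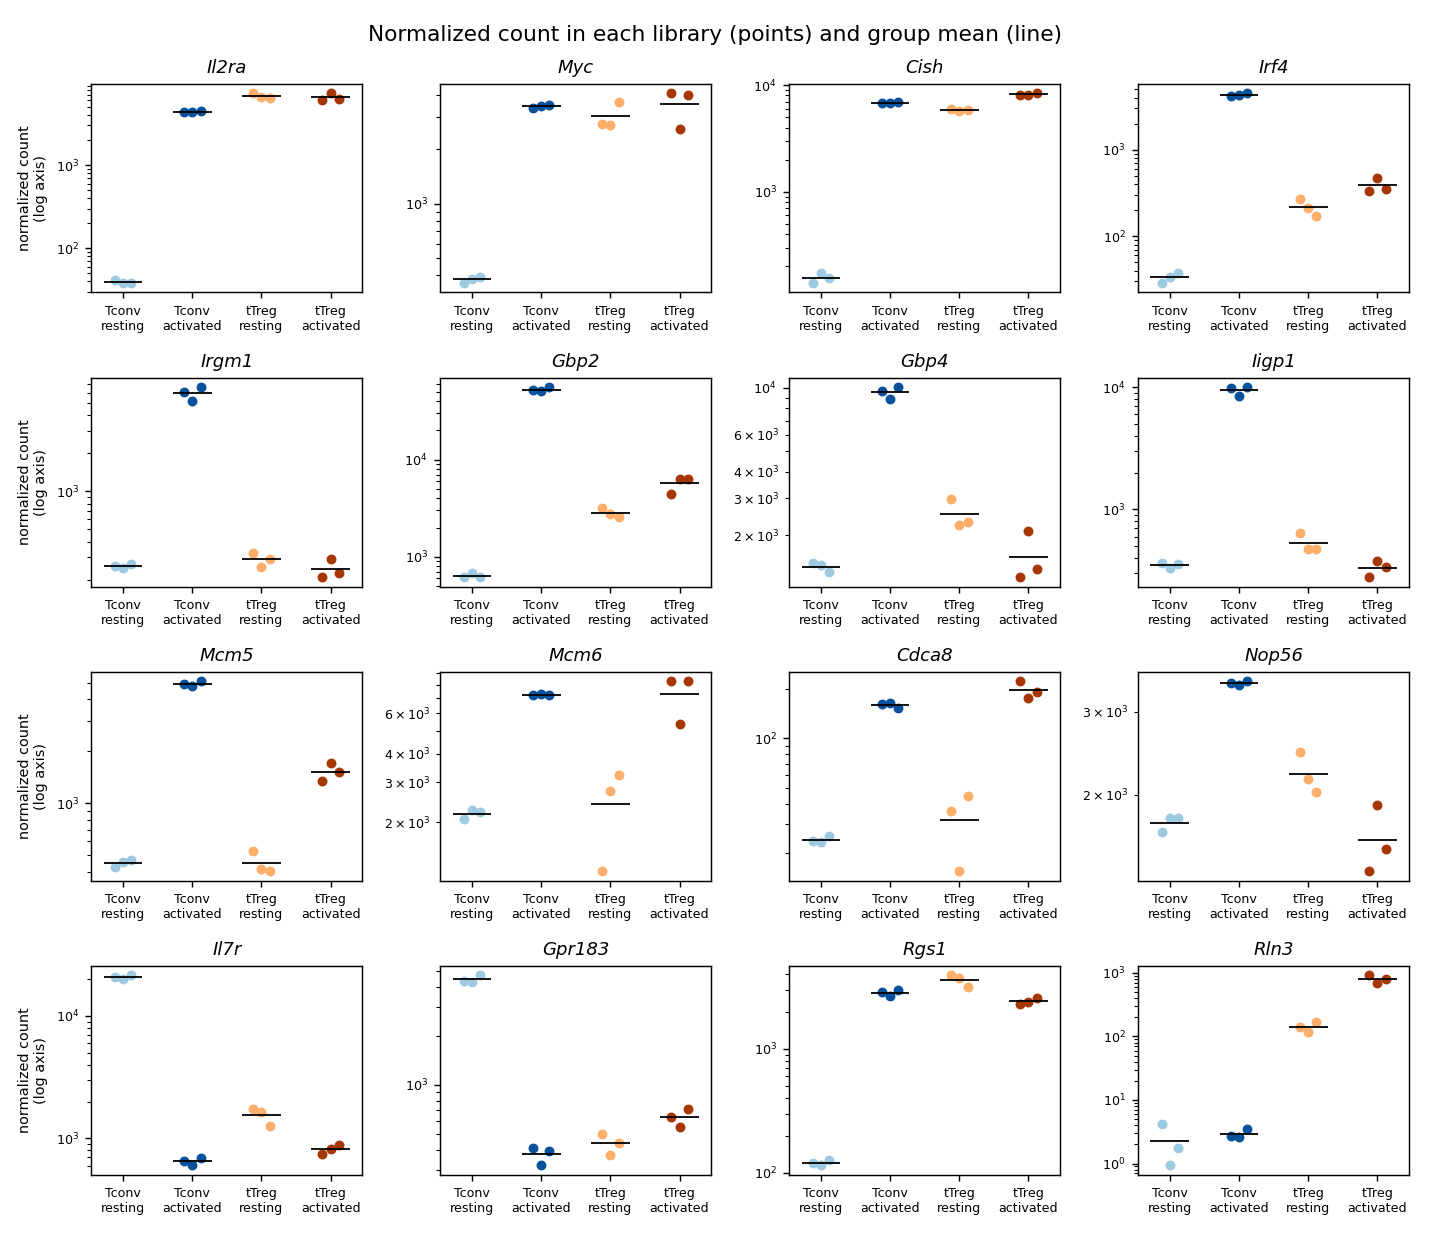
Normalized count (y axis, logarithmic, a scale of its own in each panel) of 16 genes in each library of the 4 groups, with points for the 3 libraries and a line at the mean. Il2ra, Myc and Cish are high in both tTreg groups, and Irgm1, Gbp2, Gbp4 and Iigp1 stand out in activated Tconvs. Mcm6 and Cdca8 rise in both cell types with no called difference, and Il7r and Gpr183 stand out in resting Tconvs.

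The 132 genes called in opposite directions divided into 81 that rose in Tconvs and fell in tTregs, with median changes of 1.24 and -0.72, and 51 that did the reverse, with medians of -0.92 and 0.87. The tTreg side of most was thus small. Iigp1, an immunity-related GTPase, had 364, 332 and 359 and then 9788, 8412 and 9979.8 in Tconvs, and 639, 479 and 475 and then 280.1, 381 and 341 in tTregs. The tTreg groups did not overlap, with changes of 4.73 ± 0.14 (adjusted p = 3.97e-11) and -0.66 ± 0.14 (adjusted p = 0.00308). Rgs1, a regulator of G protein signaling, rose to 2850.1 in Tconvs from 121, and fell from 3601 to 2429 in tTregs, which left an activated gap of 0.23. Cd274, which encodes PD-L1, rose in Tconvs (a change of 2.39) and fell in tTregs (-0.73). Ccdc141 and Ticrr, the latter a starter of replication, had the largest differences of the class (6.65 and 6.00). Gpr183, a chemotactic receptor for oxysterols, had 4357, 4246 and 4685 in resting and 410.3, 322 and 396 in activated Tconvs, and went from 499.8, 374 and 443 to 639.6, 554 and 708 in tTregs. It was high only in resting Tconvs, and the tTreg rise of 0.53 ± 0.13 had an adjusted p of 0.00816. Lypd6b was 426, 373 and 401 and then 23.3, 19.0 and 12.7 in Tconvs and 0 in resting and 4.04, 9.46 and 12.7 in activated tTregs, where the rise was at least 2.24-fold over the floor.

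Of the genes that responded in tTregs alone, Ltb4r1, Gad1 and Rln3 had the largest differences among those that rose. Rln3, encoding the peptide hormone relaxin-3 (chr8:84042929-84045000, minus strand, GRCm38), had 141, 118 and 171 normalized counts in resting tTregs and 909, 693 and 807 in activated ones, and was within reach of the floor in Tconvs (4.11, 0.938 and 1.76 and 2.69, 2.59 and 3.54). The groups of tTregs did not overlap, and the change was 2.49 ± 0.31 (adjusted p = 0.000123). Gad1, which makes the transmitter GABA, was at 0 in all 6 Tconv libraries, 46.3, 19.5 and 31.9 in resting tTregs and 155, 205 and 145 in activated tTregs. Its level was at least 10.5-fold higher than the floor of resting Tconvs and at least 62.6-fold higher after activation. The difference was called by limma (adjusted p = 0.0022) but not by edgeR (adjusted p = 1) or DESeq2 (adjusted p = 0.258) on the recovered reads. Ltb4r1, a leukotriene B4 receptor, was 8.16, 59.7 and 61.5 and then 135, 98.4 and 122 in tTregs, with resting replicate 1 far below the other two, and its difference was lost when reads were thinned to equal depth (adjusted p = 0.12). Among those that fell, Gimap7, a GTPase of lymphocyte survival, went from 2606, 2238 and 2196 to 1007, 1384 and 826, against 1115, 1031 and 1136 and 1503, 1483 and 1612 in Tconvs. Ifit3 fell in tTregs by 1.33 on the log2 scale and had a change of 0.77 in Tconvs that missed the call (adjusted p = 0.0843). The 5 genes with the larger change in tTregs included Zbtb32, a repressor of T cell activation (0.91 and 1.93), the heat shock gene Hsph1 (0.53 and 1.38) and Slfn1, a gene of quiescence (-0.52 and -1.10). The differences of Zbtb32 (adjusted p = 0.0269) and Slfn1 (adjusted p = 0.0368) were lost when some of the libraries were left out one at a time, with adjusted p up to 0.0676 and 0.0884.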

How the data were processed

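The 4 groups analysed comprised 3 RNA-seq replicates each. The authors deposited a normalized signal, gene counts divided by a size factor per library (DESeq2 1.26, over the 24 libraries of the table), after trimming with cutadapt 1.18, alignment with STAR 2.5.3 to mm10 and counting with RSEM 1.3.0, per the labels' processing notes and the study's methods. Within a library, 100% of values fell on whole multiples of 1 step (tolerance 0.001), and dividing by this step gave the recovered reads. Floors of 3 reads cover counting error only.

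Genes reaching 10 normalized counts in 3 or more libraries entered the tests, 11173 of 21950. After adding a pseudocount of 1 and taking log2, a model of group means over all 12 libraries was fitted with limma 3.58.1 (R 4.3.3), and fold changes of low genes are understated on that scale. Alternatives used edgeR 4.0.16 (quasi-likelihood, TMM) and DESeq2 1.42.0 on the recovered reads, other scalings, filters, pseudocounts and thresholds, reads thinned to equal depth, replicate number as a block, and each library left out. Scripts were tested on simulated data.

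Genes named were all members of the gene lists and, by class and direction, the 3 with the largest difference (4 by resting or activated gap) among those with a mean of at least 100 in 1 group and no overlap between resting and activated libraries where called; Gm numbers and Rik clones were left out. The question, lists and rule were chosen with earlier results of these data known. Promoters are from RefSeq (GRCm38.p6) and gene positions from a GENCODE annotation of GRCm38, which matched 99.3% of genes tested by name. Chromatin samples and the other RNA-seq groups were not used here.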

Additional observations from a re-analysis of the deposited data

Results flagged for a closer look

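The activation responses of Tconvs and tTregs differed by a test of the difference itself (limma, the interaction of cell type and activation) in 3843 of 11173 genes, and 132 genes were called in opposite directions. Of the latter, 22 were genes named by the rule or by the lists other than those of cell type markers. The values below are the differences in response of these 22 (Tconv minus tTreg, log2). In the CD8 T and NK cell list 1 further gene was called in opposite directions.

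The Tconv change was the higher one for Il12rb2 (6.77), Ccdc141 (6.65), Ticrr (6.00) and Rgs1 (5.11). It was also the higher one for the interferon-stimulated genes Iigp1 (5.40), Ifit1 (3.72), Gbp4 (3.44), Gbp3 (3.18) and Gbp7 (1.88). In Gbp3 and Gbp7 resting tTregs were above activated Tconvs, with means of 4667 against 1247 and 6303 against 2091 normalized counts. Cd274 (3.12), which encodes PD-L1, and the TNF family ligands Tnfsf11 (2.65) and Tnfsf8 (2.28) also had the higher change in Tconvs. So did the ribosome biogenesis genes Gnl3 (1.87) and Polr1b (1.54), the phosphatase gene Dusp10 (1.71), the potassium channel gene Kcna3 (1.19) and the survival gene Mcl1 (1.17).

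The Tconv change was the lower one for Lypd6b (-7.58), the prohormone convertase gene Pcsk1 (-6.01), Gpr183 (-4.09), the αE integrin gene Itgae (-2.08) and the cation channel gene Trpm4 (-1.09). Their tTreg rises were 2.64 ± 0.40 for Pcsk1, 0.76 ± 0.27 for Itgae and 0.58 ± 0.20 for Trpm4 (log2, ± standard error, n = 3 per group).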

How the results depend on the processing

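Leaving out each of the 12 libraries in turn gave 5341 to 5763 genes for the Tconv response, 1964 to 2852 for the tTreg response, 3513 to 4186 for the difference, 4026 to 4364 for the resting gap and 5023 to 5535 for the activated gap. The same fits gave 2305 to 2545 genes for Tconvs only, 1371 to 1648 for both in one direction, 199 to 522 for tTregs only and 100 to 207 for opposite directions, where 522 and 207 came without activated tTreg replicate 2. The share of weaker-rise genes with a higher resting level was 41.8% to 44.7%, the median responses of genes level at rest were 0.892 to 0.915 in Tconvs and 0.315 to 0.364 in tTregs, and the positions of tTregs were 20.2% to 21.8% and 55.7% to 57.1%. On the adjusted p alone the tTreg response held 3742 genes, both in one direction 2532 and opposite 323. With an absolute log2 change above 1 the counts were 2949 (Tconv response), 706 (tTreg response, of which 63.0% rose, 10.2 points more), 1958 (difference), 2169 (resting gap), 2674 (activated gap), 1392 (Tconv only), 80 (tTreg only), 473 (both) and 25 (opposite). A weight per group gave 86 opposite genes. The share of weaker-rise genes with a higher resting level moved to 40.8% with a pseudocount of 5 or with edgeR and 40.0% with a filter at 100. It was 48.2% on the adjusted p alone and 45.9% above a log2 of 1. Read from replicate 1, the share with a gap beyond 0.5, an unlike measure without a test, was 47.7%. The median Tconv response of genes level at rest moved to 0.939 with no filter, 0.859 with the filter at 100, 0.756 on the adjusted p alone, 1.39 above 1 and 0.927 when read from replicate 2, and the tTreg median to 0.551 above 1 and 0.249 when read from replicate 1. The position of resting tTregs moved to 18.2% (quantile normalization), 16.5% (filter at 100) and 28.5% (above 1), and that of activated tTregs to 53.8% (rescaled), 53.3% (quantile), 57.5% and 54.4% (pseudocounts of 0.1 and 5), 51.6% (filter at 100), 54.7% (adjusted p alone), 63.5% (above 1), 54.5% (thinned), 55.2% (edgeR) and 55.4% (DESeq2). In each setting that gave such counts fewer genes were called in tTregs than in Tconvs. The causes of these shifts were not tested, other than that a threshold or filter changes which genes are counted.

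The labels do not say whether replicate numbers pair the libraries. Deviations of same-numbered libraries had a mean correlation of -0.052, with 3 of 18 pairs above 0.1. For unlike numbers the mean was 0.026, with 9 of 36 pairs above 0.1. With 3 libraries per group these correlations cannot decide on a shared origin. With the replicate number as a block the difference was called for 3667 genes and the tTreg response for 2277. The call of a difference was followed through the alternatives for 142 of the named genes, and not for all members of the gene lists. For the 111 of these with a called difference, the call was kept in 2811 of 2880 comparisons with an alternative and lost in 69. The 31 of the 142 with none had none in 760 of 803, gained one in 42, and in 1 had a call in the other direction. The last was Atp8b4, whose difference moved from -0.80 to 2.19 with a pseudocount of 0.1, in a gene at 0 in activated tTregs. Depth limits the tTreg groups most, where 3 reads were worth up to 5.45 normalized counts.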

Other observations

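Of 19 BCL2 family and death genes tested, pro- and antiapoptotic members together, 10 rose and 3 fell in Tconvs (median 0.52), 4 rose and 2 fell in tTregs (median 0.07), and 10 were higher in resting tTregs. Of the 7 with a weaker rise in tTregs, 6 had the higher resting level and 2 were higher in activated Tconvs. Bcl2 itself had 1471, 1417 and 1547 normalized counts in resting and 5113, 4653 and 5162 in activated Tconvs, and 4771, 5098 and 4837 and then 5018, 4112 and 5531 in tTregs. Activated Tconvs and both tTreg groups overlapped, with changes of 1.75 ± 0.10 and -0.01 ± 0.10. The proapoptotic genes Bbc3 (PUMA) and Bmf fell in Tconvs, by -1.35 and -2.07 (log2 changes), and had changes of 0.37 and -0.65 in tTregs. Chaperone and unfolded protein response genes rose in Tconvs without a called resting gap in most. Of 27 tested, 21 rose in Tconvs (median 1.04) and 7 in tTregs (median 0.38). In resting tTregs 5 were higher, and 12 differences were higher in Tconvs. Tcp1, Cct3 and Hspd1, of the cytosolic and mitochondrial folding chambers, rose by 1.37, 1.12 and 1.73 in Tconvs and had changes of 0.25, 0.20 and 0.35 in tTregs. Hspa5 and Pdia3, of the endoplasmic reticulum, rose in both, by 1.07 and 1.00 in Tconvs and 0.90 and 1.10 in tTregs.

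Co-inhibitory receptors had no common direction. Of 13 tested, 5 rose and 3 fell in Tconvs and 3 rose and 2 fell in tTregs, and 7 were higher in resting tTregs. Lag3, an MHC class II ligand on activated T cells, had 37.0, 48.8 and 50.9 and then 1437, 1454 and 1479 in Tconvs and 17.2, 64.9 and 87.7 and then 377, 269 and 398 in tTregs. It began at overlapping levels and rose without overlap in both, by 4.98 ± 0.43 and 2.86 ± 0.43. Pdcd1, the gene of PD-1, fell in both (-1.67 and -0.87). Of 23 genes of NFAT, NF-κB and MAPK feedback, 13 rose and 4 fell in Tconvs (median 0.60) and 5 rose and 3 fell in tTregs (median 0.12). Nfkbia and Nfkbib, inhibitors of NF-κB, rose in both, by 0.63 and 0.77 in Tconvs and 0.64 and 0.74 in tTregs.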
